A study of Mus musculus with 6 samples.

Results

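Genes that mark the serotonergic neurons of the raphe nuclei and the noradrenergic neurons of the locus coeruleus were followed across 6 bulk RNA-seq libraries of mouse brain. They were 9 genes, taken by symbol: Tph2, Slc6a4, Fev, Gata2, Gata3 and Htr5b for the raphe, and Dbh, Slc6a2 and Phox2a for the locus coeruleus. All 9 were found among the 78298 genes of the deposited table. Of these, 7 had a mean of at least 10 normalised counts and entered the tests with 17391 genes in all; Fev and Phox2a did not and are given as values only.

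The libraries came from the left brain of male mice, 3 homozygous for a Top2b-low allele and 3 wild type, with no drug given. In the Top2b-low mice CRISPR/Cas9 had added an auxin-inducible degron, a tag for degradation on exposure to auxin, to the start of the coding sequence of Top2b, which encodes topoisomerase IIβ. The mice were 10 weeks old in one label and 3.5 months old in another. The study compared the genotypes to see what lowered Top2b does in the adult brain. One library of each genotype, its replicate 3, has a name that starts with N22; the names of the other 4 libraries do not. The name of the Top2b-low N22 library has dNdN in place of the Homo of the remaining Top2b-low libraries, with no meaning given. Without auxin the mice are a model of a lowered level and not of a loss of Top2b.

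Serotonin is made from tryptophan by neurons of the raphe nuclei, which lie along the midline of the midbrain and hindbrain and send axons to the whole brain. Noradrenaline in the forebrain comes mostly from the locus coeruleus, a small nucleus of the dorsal pons. Both cell groups are few in number, so their transcripts are a small part of whole-brain RNA. Each carries a synthesis enzyme, a plasma membrane transporter that takes the transmitter back up, and a set of transcription factors that establish and hold its identity.

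Library totals ran from 16963067 to 35246703 reads, and 3 reads equalled 1.77 to 3.76 normalised counts. Top2b was at 2152, 2314 and 1965 normalised counts in Top2b-low replicates 1 to 3. In wild-type replicates 1 to 3 it was at 3160, 3014 and 2485. The genotypes thus did not overlap, which held for 5.74% of tested genes. Top2b did not pass the genotype test over all genes (log2 fold change −0.42, limma adjusted p = 0.99997). It was called lower in the N22 libraries with genotype in the model (−0.25, limma adjusted p = 0.0161). A list of 9 brain markers, among them Snap25, Syt1, Rbfox3, Slc17a7, Gad1, Mbp, Aqp4 and Gfap, was high in each library, the sum lying between 195640 and 208923 normalised counts. Of these 9, Aqp4 was lower and Slc17a7 higher in the N22 libraries by limma's test; the Aqp4 call held when any 1 library was left out, and the Slc17a7 call ended without either N22 library. In tissue RNA, fewer cells of a type and less RNA per cell cannot be told apart.

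Tph2 and Slc6a4, the main raphe genes, were lower in both N22 libraries than in any other library, and they also differed several-fold among the other 4. Tph2 (ENSMUSG00000006764, chromosome 10) encodes tryptophan hydroxylase 2, the rate-limiting enzyme of serotonin synthesis in neurons. Slc6a4 (ENSMUSG00000020838, chromosome 11) encodes the serotonin transporter. Fev (ENSMUSG00000055197, chromosome 1), also called Pet-1, is an ETS transcription factor that in the brain is restricted to serotonin neurons and is needed for their expression of Tph2 and Slc6a4. The promoter windows of these genes are shown because the genes are expressed by one cell type, and they run from 250 bases before to 50 bases after the RefSeq start site, 5′ to 3′.
Tph2 (GRCm38.p6, chr10:115184973-115185272, minus strand): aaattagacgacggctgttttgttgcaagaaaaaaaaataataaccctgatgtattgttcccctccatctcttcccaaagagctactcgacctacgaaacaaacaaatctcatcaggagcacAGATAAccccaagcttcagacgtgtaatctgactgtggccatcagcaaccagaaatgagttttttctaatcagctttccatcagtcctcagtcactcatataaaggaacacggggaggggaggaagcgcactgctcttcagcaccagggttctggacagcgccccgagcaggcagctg
Slc6a4 (GRCm38.p6, chr11:76998347-76998646, plus strand): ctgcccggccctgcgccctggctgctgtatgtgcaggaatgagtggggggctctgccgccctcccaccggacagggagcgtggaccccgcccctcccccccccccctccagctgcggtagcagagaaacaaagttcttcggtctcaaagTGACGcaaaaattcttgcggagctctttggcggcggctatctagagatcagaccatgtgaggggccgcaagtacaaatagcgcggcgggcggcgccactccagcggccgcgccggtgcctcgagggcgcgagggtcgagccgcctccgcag
Fev (GRCm38.p6, chr1:74885359-74885658, minus strand): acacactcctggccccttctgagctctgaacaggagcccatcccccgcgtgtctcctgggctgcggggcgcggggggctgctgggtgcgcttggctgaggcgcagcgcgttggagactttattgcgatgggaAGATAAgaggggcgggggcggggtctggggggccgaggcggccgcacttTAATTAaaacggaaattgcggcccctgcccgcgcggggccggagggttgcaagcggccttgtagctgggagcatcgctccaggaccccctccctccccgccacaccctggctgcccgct

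Capitals mark matches, on either strand, to any of 4 motifs: AGATAA (bound by Gata factors), CGGAAG (ETS factors), TAATTA (homeodomain factors) and TGACG (the core of a cyclic AMP response element). No pair of these motifs overlapped in the windows shown. AGATAA stood in the Tph2 and Fev windows, starting 128 and 118 bases before the start site, and in 11.2% of 32817 RefSeq promoter windows of the same length. TAATTA stood in the Fev window and in 5.3% of all windows, and TGACG in the Slc6a4 window and in 20.8%. CGGAAG, which stood in 16.9% of all windows, was in none of these 3. A match is a description of letters and not a measured binding site.

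Tph2 had 109.5, 169 and 13.6 normalised counts in Top2b-low replicates 1 to 3, against 256, 53.9 and 41.2 in wild-type replicates 1 to 3. Slc6a4 had 61.5, 114 and 1.77 in the Top2b-low libraries, against 155, 43.9 and 16.4 in wild type. Both genes thus ranked the libraries in the same order: wild-type replicate 1 came first, followed by Top2b-low replicates 2 and 1 and then by wild-type replicate 2, the wild-type N22 library was next, and the Top2b-low N22 library was lowest. Fev was near the limit of detection, with 2, 11 and 2 reads in Top2b-low libraries and 4, 0 and 2 in wild type. Its highest value, 13.4 normalised counts, lay in Top2b-low replicate 2, the second highest library for Tph2.

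**Figure D1:**
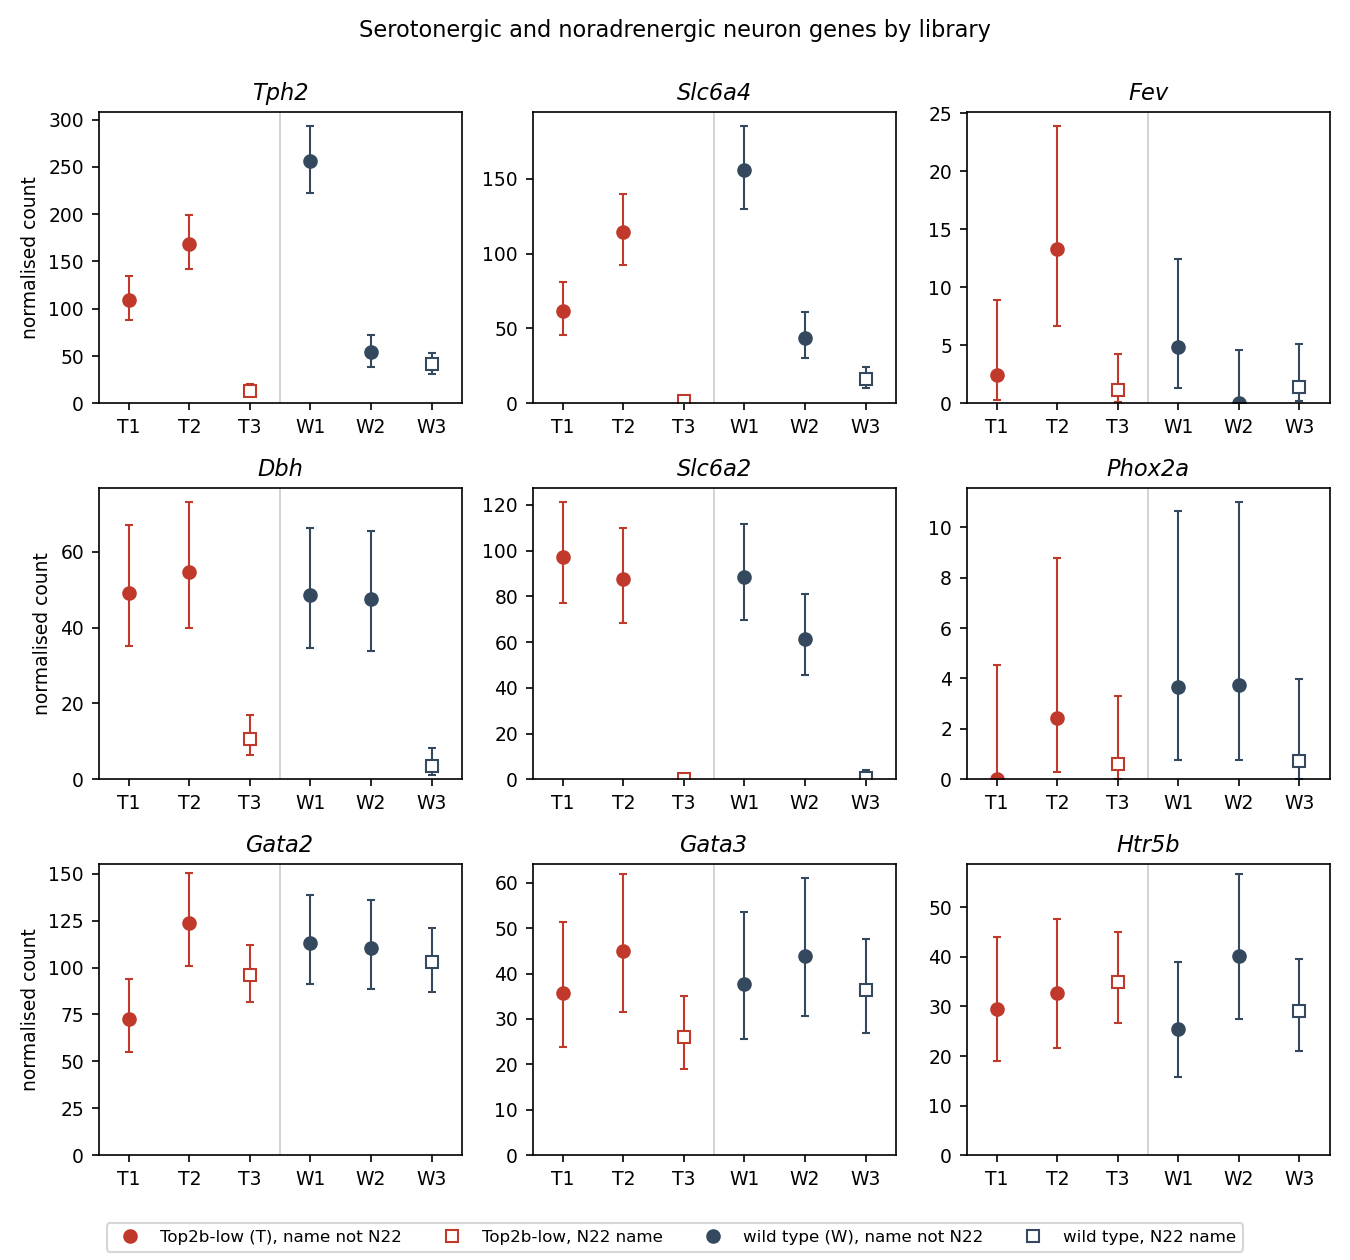
Normalised counts of the 9 genes in each library (T1 to T3, Top2b-low replicates 1 to 3; W1 to W3, wild-type replicates 1 to 3); bars are exact 95% Poisson intervals, which cover counting error only, and open squares are the N22 libraries. Tph2, Slc6a4, Dbh and Slc6a2 have their lowest values in the open squares, while Gata2, Gata3 and Htr5b do not separate them.

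Tph2 averaged 27.4 ± 19.5 normalised counts in the N22 libraries and 147 ± 86.6 in the other 4 (SD, n = 2 and 4). With genotype in the model, its log2 fold change was −2.36 (SE 0.54, limma adjusted p = 0.0103). Slc6a4 averaged 9.07 ± 10.3 in the N22 libraries and 93.7 ± 50.8 in the other 4, a log2 fold change of −3.60 (SE 0.61, limma adjusted p = 0.0023). Both fell in the N22 libraries by this test. In all, 4 of the 7 tested members were called lower there and 0 higher. Over all tested genes the test called 16.7% lower, 11.3% higher and 28.0% in either direction. Slc6a4, Dbh and Slc6a2 averaged under 10 in the N22 libraries and passed the mean filter only through the other 4. The filter thus favoured a lower call for them, and the count is not to be weighed against these shares. For 26.5% of tested genes both N22 libraries lay below the other 4.

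The raphe calls depended on Top2b-low replicate 3. Without it, Tph2 had a log2 fold change of −1.49 (limma adjusted p = 0.211) and Slc6a4 of −2.27 (adjusted p = 0.0560), and neither passed. That fit holds 1 N22 library, which is assumed to vary like the others. Without limma's trend across expression levels the fold changes were the same and neither gene passed (limma adjusted p = 0.101 and 0.0552). Tph2 in the wild-type N22 library had a counting interval of 31.3 to 53.3 normalised counts, which overlapped the 39.0 to 72.6 of wild-type replicate 2. The Slc6a4 interval of that N22 library, 10.4 to 24.5, lay below the 30.6 to 61.0 of wild-type replicate 2. Between the N22 libraries themselves, Tph2 was at 23 reads in the Top2b-low and 58 in the wild-type one, a ratio of 0.33 after scaling (exact 95% counting interval 0.194 to 0.543). Slc6a4 was at 3 and 23 reads, a ratio of 0.11 (0.021 to 0.36). This pair holds 1 library per genotype, so the ratios compare those libraries and not the genotypes.

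The spread among the 4 libraries outside N22 was wide for the raphe genes. Tph2 differed 4.76-fold between the highest and the lowest of them, and Slc6a4 3.54-fold. The median of this ratio over all tested genes was 1.21. A ratio at least as large as that of Tph2 was found for 1.24% of tested genes, and as that of Slc6a4 for 2.27%. Both extremes were wild type, replicate 1 at the top and replicate 2 at the bottom, with the Top2b-low libraries between them.

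Dbh and Slc6a2, the locus coeruleus genes, were lower in both N22 libraries than in any other library, and Dbh was close to even among the other 4. Dbh (ENSMUSG00000000889, chromosome 2) encodes dopamine beta-hydroxylase, which turns dopamine into noradrenaline. Slc6a2 (ENSMUSG00000055368, chromosome 8) encodes the noradrenaline transporter. Phox2a (ENSMUSG00000007946, chromosome 7) is a paired-like homeodomain factor that is needed for the locus coeruleus to form and that also acts in cranial motor neurons. The Dbh promoter window is shown as the counterpart of the raphe windows, with the same marking.
Dbh (GRCm38.p6, chr2:27165257-27165556, plus strand): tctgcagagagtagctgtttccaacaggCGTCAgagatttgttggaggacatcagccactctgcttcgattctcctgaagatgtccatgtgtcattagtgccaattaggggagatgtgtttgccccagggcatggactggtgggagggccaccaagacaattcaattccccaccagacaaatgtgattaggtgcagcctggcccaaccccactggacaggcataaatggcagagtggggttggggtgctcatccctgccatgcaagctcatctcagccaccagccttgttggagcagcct
Its only match was to TGACG, read on the opposite strand as CGTCA, 222 bases before the start site; the Phox2a window held no match to the 4 motifs.

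Dbh had 49.2, 54.6 and 10.6 normalised counts in Top2b-low replicates 1 to 3, against 48.6, 47.6 and 3.56 in wild-type replicates 1 to 3. Slc6a2 had 97.2, 87.4 and 0 in the Top2b-low libraries, against 88.7, 61.4 and 0.71 in wild type. For both genes the 4 libraries outside N22 stood far above the N22 pair. Among those 4, Dbh differed 1.15-fold from lowest to highest and Slc6a2 1.58-fold; 66.5% and 18.2% of tested genes had a ratio at least as large. Phox2a was at 0, 2 and 1 reads in Top2b-low libraries and at 3, 3 and 1 in wild type, too few to order the libraries. It also overlaps Inppl1 on the opposite strand, a gene with 4913 reads over all libraries, and whether counting used strand was not given.

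Dbh averaged 7.10 ± 5.02 normalised counts in the N22 libraries and 50.0 ± 3.15 in the other 4 (SD, n = 2 and 4). It fell by 2.81 on the log2 scale (SE 0.32, limma adjusted p = 0.00028). Slc6a2 averaged 0.36 ± 0.50 in the N22 libraries and 83.7 ± 15.5 in the other 4, and it fell by 6.0 on that scale (SE 0.35, limma adjusted p = 2.69e-06). That fitted value depends on the pseudocount, and was −6.74 with 0.5 and −4.03 with 5. Its N22 libraries held 1 read together and the other 4 held 273. The ratio of these levels was 0.0039, with an exact 95% counting interval of 9.72e-05 to 0.022. Of all tested genes, 0.0575% had an N22 fold change as low as that of Slc6a2 or lower, 0.391% as low as Dbh, 0.236% as low as Slc6a4 and 0.512% as low as Tph2. Slc6a2, Dbh and Slc6a4 passed the mean filter only through the other 4 libraries. The filter thus favoured a low fold change and a lower call for them, also in the fits with a library left out. Their shares are not to be read as evidence of a fall. Both locus coeruleus calls held when any 1 library was left out, with log2 fold changes of −3.43 to −2.18 for Dbh and −6.54 to −5.45 for Slc6a2.

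**Figure D2:**
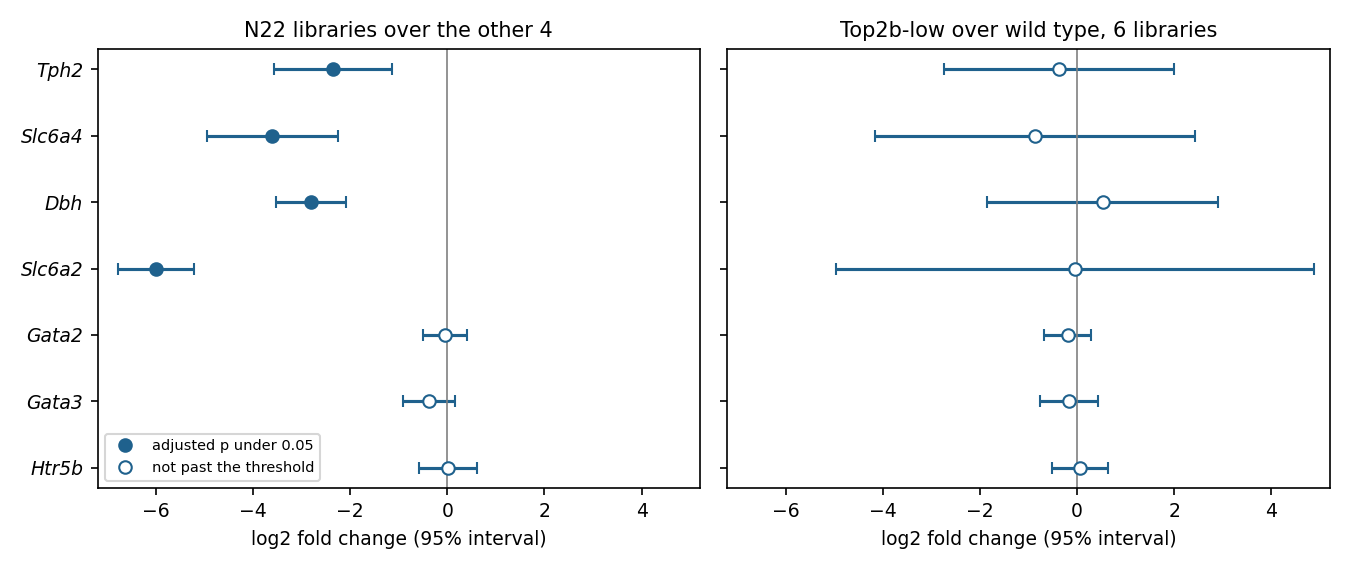
Log2 fold changes of the 7 tested genes with limma's 95% intervals, N22 libraries over the other 4 on the left and Top2b-low over wild type on the right; filled points passed an adjusted p of 0.05. Tph2, Slc6a4, Dbh and Slc6a2 lie left of 0 in the N22 comparison, and all 7 intervals cross 0 in the genotype comparison.

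Over the summed reads, the share of the transporter among transporter and enzyme was lower in the N22 libraries in both systems. Slc6a2 made up 4.17% of the reads of Slc6a2 and Dbh together in the N22 libraries (1 of 24 reads, exact 95% binomial interval 0.105% to 21.1%) and 62.6% in the other 4 (273 of 436, 57.9% to 67.2%). In the Top2b-low N22 library it was 0 of 18 reads, an interval that reaches 18.5%, and in the wild-type one 1 of 6 reads (0.421% to 64.1%), which overlapped the other 4. In the other 4 libraries the share ran from 56.3% to 66.4%, with overlapping intervals. Slc6a4 made up 24.3% of the reads of Slc6a4 and Tph2 in the N22 libraries (26 of 107, 16.5% to 33.5%) and 38.9% in the other 4 (307 of 789, 35.5% to 42.4%). The single N22 libraries stood at 11.5% (2.45% to 30.1%) in Top2b-low and 28.4% (18.9% to 39.5%) in wild type, and both intervals overlapped that of at least 1 other library. These intervals cover counting error only, and no test over libraries was run on the shares.

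**Figure D3:**
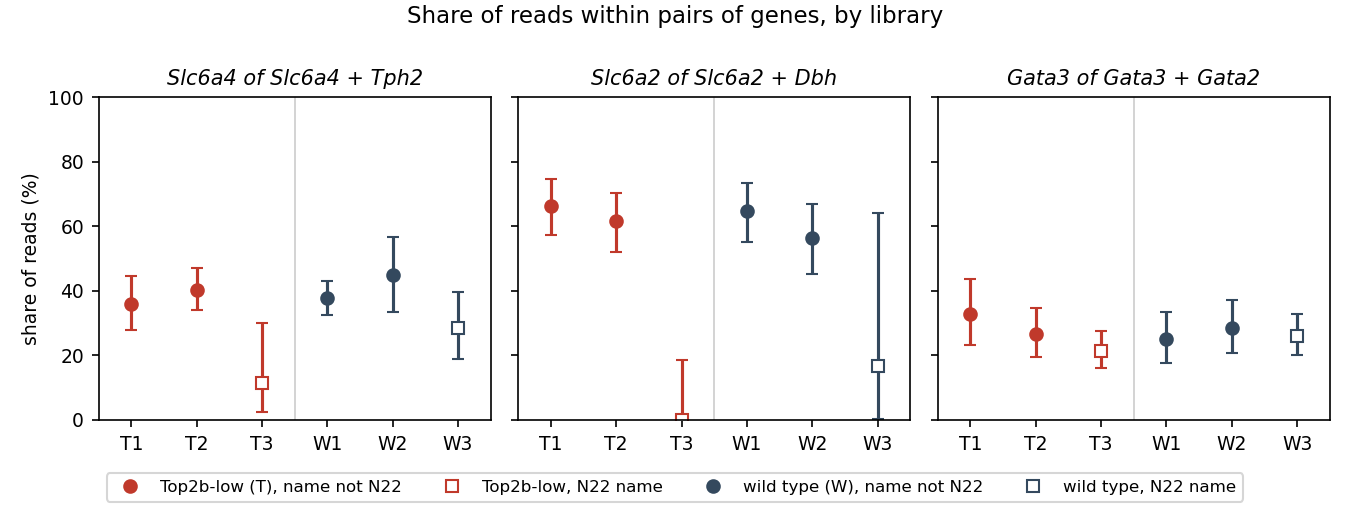
Share of reads, in percent, of the first gene among the reads of both genes of a pair, per library, with exact 95% binomial intervals (counting error only); open squares are the N22 libraries. The Slc6a2 share stands at 56.3% to 66.4% outside N22 and at 0% and 16.7% in the N22 libraries, while the Gata3 share keeps within 21.4% to 33.0%.

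Balance between the raphe and the locus coeruleus also varied from library to library. Dbh made up 31.0%, 24.5% and 43.9% of the reads of Dbh and Tph2 in Top2b-low replicates 1 to 3, against 15.9%, 46.9% and 7.94% in wild-type replicates 1 to 3. The wild-type libraries thus held both the highest and the lowest share. In the N22 pair the share was 43.9% (exact 95% interval 28.5% to 60.3%) in Top2b-low and 7.94% (2.63% to 17.6%) in wild type. Among Tph2, Slc6a4, Dbh and Slc6a2, Dbh alone had more reads in the Top2b-low than in the wild-type N22 library, 18 against 5, a ratio of 3.00 after scaling (1.07 to 10.3).

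Gata2 and Htr5b did not follow the N22 split, and Gata3 was on average lower in the N22 libraries without passing. Gata2 (ENSMUSG00000015053, chromosome 6) and Gata3 (ENSMUSG00000015619, chromosome 2) are zinc finger factors required in serotonin neuron development, and both are also expressed in GABAergic neurons of the midbrain and hindbrain; Gata2 is expressed in endothelium as well. Htr5b (ENSMUSG00000050534, chromosome 1) encodes a serotonin receptor found in raphe neurons and in the habenula of rodents. Gata2 had 72.6, 124 and 95.8 normalised counts in Top2b-low replicates 1 to 3, against 113, 110.3 and 103 in wild-type replicates 1 to 3. Both N22 values lay within the range of the other 4.

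Gata3 had 35.7, 44.9 and 26.0 normalised counts in Top2b-low libraries, against 37.7, 43.9 and 36.3 in wild type. Its lowest value was that of Top2b-low replicate 3, whose counting interval of 18.9 to 35.0 overlapped those of all other libraries. Over the summed reads, the ratio of Gata3 in the N22 libraries to the other 4 was 0.757 (exact 95% counting interval 0.575 to 0.993). Its N22 log2 fold change stayed between −0.60 and −0.16 over the alternatives, with no call. Htr5b had 29.5, 32.8 and 34.9 in Top2b-low libraries, against 25.5, 40.1 and 29.2 in wild type, again with the N22 values inside the range of the rest. The N22 log2 fold changes were −0.05 for Gata2 (limma 95% interval −0.50 to 0.40, adjusted p = 0.881), −0.38 for Gata3 (−0.91 to 0.15, adjusted p = 0.261) and 0.02 for Htr5b (−0.58 to 0.61, adjusted p = 0.974). These intervals do not reach the estimates of Tph2, Slc6a4, Dbh or Slc6a2. The 2 promoter windows of Gata2 and the window of Gata3 held none of the 4 motifs. In the annotation 3 genes overlap Gata3, with 0 to 6 reads each over all libraries.

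Per kilobase of exon, Tph2 was the highest of the 9 genes outside N22, at a mean of 51.1 normalised counts per kilobase with a range of 18.7 to 89.0 over the 4 libraries. Slc6a4 (20.7), Gata2 (19.4), Dbh (18.6), Htr5b (16.5) and Slc6a2 (13.3) followed, and Gata3 stood at 10.2. Each neighbouring pair in this order, from Tph2 down to Gata3, had overlapping ranges over the 4 libraries, while that of Dbh lay above that of Slc6a2. Fev and Phox2a were lowest at 3.20 and 1.21. In the N22 libraries the order changed: Gata2 (18.4) and Htr5b (16.6) led, Tph2 came next at 9.53, and Slc6a2 was last at 0.057. The exon lengths came from GENCODE vM21, which may not be the annotation used for counting.

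No member passed the test between the genotypes. Top2b itself did not pass either, so a difference like that of Top2b can go uncalled here. Limma called 0 of 17391 genes (0.0%) at an adjusted p under 0.05, with 262 (1.51%) at an unadjusted p under 0.05; edgeR and DESeq2 also called 0, with 250 (1.44%) and 168 (0.966%). With an N22 term DESeq2 called 14 genes (0.0805%), none of them a member. The groups overlapped for all 9 genes, where 5.74% of tested genes had groups that did not. Tph2 averaged 97.3 ± 78.3 normalised counts in Top2b-low mice and 117 ± 121 in wild type (SD, n = 3 each), a log2 fold change of −0.37 with a 95% interval of −2.74 to 1.99. Slc6a4 averaged 59.1 ± 56.2 in Top2b-low mice and 71.9 ± 73.7 in wild type, with an interval of −4.17 to 2.43. Limma's adjusted p was 0.99997 for each of the 7 tested members, and two-sided exact permutation tests on single genes gave p from 0.2 to 0.9 over the 9, where 3 against 3 libraries cannot go below 0.1.

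Each genotype holds 1 N22 library, and the interval of the genotype difference was wide for the genes that split by N22, at −1.86 to 2.91 for Dbh and −4.97 to 4.87 for Slc6a2. It was narrower for the others, at −0.67 to 0.29 for Gata2, −0.76 to 0.43 for Gata3 and −0.52 to 0.63 for Htr5b. Among the 4 libraries outside N22 the log2 fold changes were 0.20 for Tph2, 0.02 for Slc6a4, 0.11 for Dbh and 0.32 for Slc6a2, with adjusted p of 0.954 or more. Without Top2b-low replicate 3, the library with the differing name, they were 0.70 for Tph2, 0.78 for Slc6a4, 1.25 for Dbh and 2.13 for Slc6a2 (limma adjusted p = 0.99997 for each). That fit keeps an N22 library in wild type only, so genotype is not balanced over N22 in it. Its values thus cannot be read as a genotype difference. Over all alternatives run, with terms for the replicate number and for N22 among them, no member passed, and the lowest adjusted p was 0.818, for Dbh.

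Of 11 other genes of serotonin handling 10 were tested, and 3 fell in the N22 libraries while 0 rose. Counted in either direction, this is near the 28.0% over all tested genes. Of all tested genes 16.7% were called lower, and whether 3 of 10 differs from that share was not tested. The median log2 fold change was −0.07 against −0.0046 over all tested genes. Slc29a4, a low-affinity monoamine transporter, averaged 239.5 normalised counts in the N22 libraries and 367 in the other 4 (log2 fold change −0.62, limma adjusted p = 0.0037). Gch1, which starts the synthesis of the hydroxylase cofactor tetrahydrobiopterin, averaged 30.9 in the N22 libraries and 57.1 in the other 4. Slc18a2, the vesicular monoamine transporter shared by all monoamine neurons, was at 35.5 in the Top2b-low and 255 in the wild-type N22 library, against 219 to 343 in the other 4. The wild-type N22 library was thus inside the range of the rest, and edgeR and DESeq2 did not call Slc18a2 (adjusted p = 0.0741 and 0.217). Without Top2b-low replicate 3 none of the 3 calls held; that of Gch1 also ended without wild-type replicate 3, and that of Slc18a2 without any 1 of Top2b-low replicates 1 and 2 and wild-type replicate 1. Ddc, the decarboxylase shared by serotonin and catecholamine synthesis, had the smallest unadjusted genotype p of the list (0.0407), with a log2 fold change of −0.62, and Maoa, which breaks down serotonin and noradrenaline, averaged 848 in the N22 libraries and 929 in the other 4 and did not pass.

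Of 6 further transcription factors of raphe neurons, 5 were tested. In the N22 libraries 3 fell and 0 rose, where 16.7% of all tested genes were called lower, and the median log2 fold change was −1.47. En2, which cerebellar neurons also express, averaged 30.1 normalised counts in the N22 libraries and 595 in the other 4 (log2 fold change −4.26, limma adjusted p = 4.07e-09). En1 averaged 11.4 in the N22 libraries and 37.7 in the other 4. Lmx1b, needed for serotonin neurons to form, averaged 13.0 in the N22 libraries and 32.6 in the other 4. Nkx2-2, which also marks oligodendrocyte precursors, averaged 80.0 in the N22 libraries and 104 in the other 4 and did not pass. Without Top2b-low replicate 3 the calls of En1 and Lmx1b ended, with log2 fold changes of −1.05 and −0.91, and that of En2 held. Lmx1b outside N22 was highest in wild-type replicate 2 (47.6 normalised counts), the library with the lowest Tph2 of those 4.

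Receptors for serotonin sit largely on target neurons across the forebrain. Of 13 beyond Htr5b, 11 were tested, 1 fell and 2 rose in the N22 libraries, a share near the 28.0% of all tested genes called in either direction, with a median log2 fold change of 0.19. Htr1b fell by 0.57 on the log2 scale, to 346 normalised counts in the N22 libraries against 517 in the other 4. Htr3a, an ion channel subunit of interneurons, averaged 119.6 in the N22 libraries and 69.4 in the other 4, and its call ended without either N22 library. Htr6, highest in the striatum, averaged 67.0 in the N22 libraries and 43.6 in the other 4, and its call ended without any 1 of the 6 libraries. Htr1a, the receptor of raphe neurons and of hippocampal targets, averaged 471 in the N22 libraries and 396 in the other 4 and did not pass (limma adjusted p = 0.0728). By genotype 0 of the 11 passed, and Htr2c had the smallest unadjusted p (0.105).

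Of 9 noradrenergic neuron genes beyond the members 7 were tested. In the N22 libraries 2 fell and 1 rose, with a median log2 fold change of −0.24. Over all tested genes 28.0% were called in either direction. Tfap2b, a transcription factor expressed in locus coeruleus and also in cerebellar interneurons, fell by 1.97 on the log2 scale, to 69.0 normalised counts against 276 in the other 4, and the call held when any 1 library was left out. The other to fall was Slc18a2, and Cyb561, of the vesicles in which Dbh works, rose by 0.19, a call that ended when any 1 library was left out. Gal, which encodes the neuropeptide galanin of locus coeruleus and also of hypothalamic neurons, had the smallest unadjusted genotype p of the list (0.00472). It had 34.5, 12.1 and 8.87 normalised counts in Top2b-low replicates 1 to 3, against 69.2, 45.1 and 88.2 in wild-type replicates 1 to 3. Gal thus did not overlap between the genotypes, which held for 5.74% of tested genes. Its log2 fold change was −1.99 (SE 0.50), and it did not pass over all genes (limma adjusted p = 0.99997). Th, the first enzyme of catecholamine synthesis, is outside the naming rule and was chosen after its values were seen. It had 43.8 normalised counts in the Top2b-low and 273 in the wild-type N22 library, against 161 to 228 in the other 4.

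All 9 adrenergic receptors were tested, 1 fell and 2 rose in the N22 libraries, again near the 28.0% of all tested genes, with a median log2 fold change of −0.08. Adra2a, the autoreceptor of locus coeruleus neurons, averaged 307 normalised counts in the N22 libraries and 422 in the other 4, a call that ended without Top2b-low replicate 3. Adra1d averaged 349.5 in the N22 libraries and 250.1 in the other 4, and its call ended without either N22 library or wild-type replicate 1. Adra1b averaged 420.0 in the N22 libraries and 329 in the other 4, and its call held only without Top2b-low replicate 2. Adra2c had the smallest unadjusted genotype p of the list (0.0516), with a log2 fold change of 0.24.

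Of 7 factors that act beside Gata2 and Gata3 in GABAergic neurons, 6 were tested. In the N22 libraries 3 fell and 0 rose, with a median log2 fold change of −0.34. The shares over all tested genes, for this list and the next ones, were 16.7% called lower and 28.0% in either direction. Lhx1 and Lhx5, which Purkinje cells also express, averaged 36.6 and 32.6 normalised counts in the N22 libraries, against 274 and 105 in the other 4, and the Gata cofactor Zfpm2 353 against 555. Zfpm1, the other Gata cofactor, averaged 463 in the N22 libraries and 478 in the other 4 and did not pass. Tal1, chosen after its values were seen, is a partner of Gata2 in midbrain GABAergic neurons and averaged 90.1 in the N22 libraries and 90.5 in the other 4. In the habenula list 0 of 6 tested genes passed, and Gpr151 had the smallest p, with 46.5 normalised counts in the N22 libraries and 28.3 in the other 4. Of 6 endothelial genes 3 fell and 1 rose, Flt1 by the smallest p with a log2 fold change of −0.48; the Flt1 call held when any 1 library was left out. The calls of Cdh5 and Pecam1 ended without wild-type replicate 3, that of Cdh5 also without Top2b-low replicate 3, and that of Ly6c1, which rose, without Top2b-low replicate 2 or 3 or wild-type replicate 1. Of 6 blood and mast cell genes 3 were tested and 2 fell, Kit and Alas2, while Hba-a1 did not pass. The Alas2 call ended without Top2b-low replicate 3, and Alas2 ran from 99.6 to 1857 normalised counts in the libraries outside N22. Gata1 and the mast cell genes Cpa3 and Tpsb2 were at 2 reads or fewer in each library, so the Kit call is not read as one of mast cells.

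Markers of hindbrain and cerebellum stood lower in the N22 libraries beside the members that fell there. All 14 hindbrain Hox genes were at 0 reads in both N22 libraries, and they summed to 93.5 to 313 normalised counts in the other 4. Of the 14, 5 were tested and all 5 fell, led by Hoxb5, Hoxa5, Hoxb3 and Hoxb4. They passed the mean filter only through the other 4 libraries, so their direction was fixed in advance and the count shows nothing further. The sum of 10 cerebellar markers, all tested and all lower, was 747 in the Top2b-low and 1072 in the wild-type N22 library. In the other 4 it was 19729 to 26057. Some of these markers, Gabra6 and Fat2 among them, averaged under 10 in the N22 libraries and passed the filter only through the other 4. Of 4 glycinergic and dorsal hindbrain genes all 4 fell, among them the glycine transporter Slc6a5. It averaged 28.4 normalised counts in the N22 libraries and 721 in the other 4. Tlx3 was at 0 in both N22 libraries and Lbx1 averaged 0.30 there. They too passed the filter only through the other 4. Of all tested genes 16.7% were called lower. The part of tissue content in the fall of the members was not tested.

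For midbrain and cranial motor markers the shares over all tested genes were again 16.7% called lower and 28.0% in either direction. Of 7 midbrain dopaminergic genes 5 were tested, and Aldh1a1 and En1 fell, while Nr4a2 and Slc6a3 did not pass. Of 7 cranial motor and cholinergic genes 5 were tested, and Slc5a7 and Slc18a3 fell, the second call ending without Top2b-low replicate 3, with Mnx1 at 0 in every library. Of 7 pineal genes, a gland that makes serotonin with Tph1, only Sag was tested and it did not pass. Tph1, Asmt, Mnx1, Gata1, Cpa3 and Tpsb2 were not tested and are named here for their low values. Tph1 was at 1.21 to 8.28 normalised counts and the melatonin enzyme gene Asmt at 1.77 or less. Outside N22 the Hox sum did not rank the libraries as Tph2 did. It was 107 and 93.5 in Top2b-low replicates 1 and 2, against 206 and 313 in wild-type replicates 1 and 2, so wild-type replicate 2 was highest for Hox genes and lowest for Tph2. The part of tissue content in the spread of Tph2 among these libraries was not tested.

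**Figure D4:**
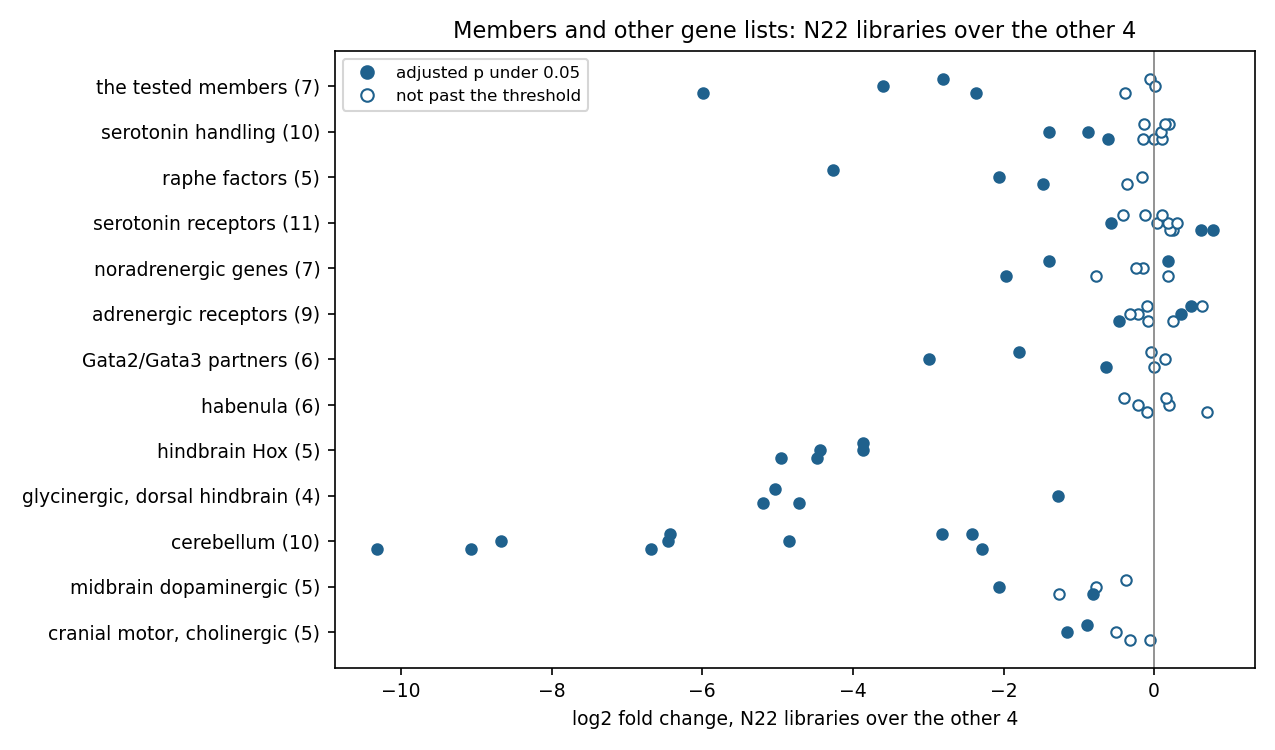
Log2 fold changes in the N22 libraries over the other 4, 1 point per tested gene, for the members and 12 other lists; filled points passed limma's adjusted p of 0.05 and numbers in brackets count tested genes. Hindbrain Hox and cerebellar genes all lie left of 0 and passed, while the habenula list has no filled point. The Hox genes had 0 reads in the N22 libraries, so their side was fixed by the mean filter.

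The genes most like the mean profiles of the raphe and locus coeruleus members were outside the monoamine lists. Over the 6 libraries, on log2 normalised counts, the mean profile of Tph2, Slc6a4 and Fev was matched best by Reps1, Llgl1, Clmp and Tmem145, with Pearson r of 0.988 to 0.991 among 14256 named genes. Their own changes were small: Reps1 ranged from 695 to 794 normalised counts. Fev and Phox2a, near the limit of detection, entered the mean profiles with the same weight as the other genes. The matches are thus not matches to Tph2 and Slc6a4 alone. Llgl1 was higher in Top2b-low replicate 2 (1250) than in wild-type replicate 1 (1236), the reverse of Tph2 and Slc6a4. The mean profile of Dbh, Slc6a2 and Phox2a was matched best by Mknk2, Mindy2, Trim8, Cep170 and St18, with r of 0.998 to 1.000. St18 was at 224 and 228 normalised counts in the Top2b-low and wild-type N22 libraries, against 644 to 763 in the other 4. With 6 libraries that share the N22 split, 1028 genes had an r over 0.95 with the locus coeruleus profile and 55 with the raphe profile, so a high r alone sets no gene apart.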

How the data were processed

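Polyadenylated RNA was sequenced in 6 libraries from stranded kits. The values the authors deposited are normalised counts, treated here as a signal divided by a factor per library; per the submitters' processing notes RSEM and mm39 were used. Sources used here give no version, annotation or strand use. All values (100%, tolerance 1e-06 reads) came out as whole numbers when divided by the smallest positive value of their library, so whole reads were recovered. Depth ran from 16963067 to 35246703 reads per library.

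Symbols came from a GENCODE vM21 table, promoter windows from RefSeq (GRCm38.p6), where 7 of the 9 members had one. Values were tested as log2(normalised count + 1) for genes with a mean of at least 10, with limma 3.58.1 in R 4.3.3 (empirical Bayes with trend, two-sided, Benjamini-Hochberg over all tested genes, threshold 0.05): Top2b-low against wild type, and N22 libraries against the other 4 with genotype in the model. Fold changes on this scale understate changes of low genes. edgeR 4.0.16 and DESeq2 1.42.0 on recovered reads were alternatives, as were pseudocounts of 0.5 and 5, no filter, a mean of at least 50, TMM scaling, no trend, single libraries left out, and terms for N22 or the replicate number. Fits were tested on simulated data, where the genotype case held no N22 difference. That case thus did not check the genotype fit under the N22 split. Intervals on reads are exact and cover counting error only.

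Replicate numbers of the titles were checked for pairing. Deviations from the genotype means correlated between same-numbered libraries at 0.33, 0.35 and 0.68, all over 0.1. From these values alone, the numbers were used as pairs in the alternative with a replicate block. Top2b-low replicate 2 correlated with wild-type replicate 1 at 0.37 and Top2b-low replicate 1 with wild-type replicate 2 at 0.24. These also passed 0.1, so neither the threshold nor the values show which pairing of replicates 1 and 2 holds. Replicate 3, the N22 library of each genotype, correlated with replicates 1 and 2 of the other genotype at −0.52 to −0.40. The genotype means include it, so the deviations carry the N22 split. The check thus cannot show a pairing beyond that split. Replicates were taken as separate mice, as the series text counts mice.

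Members and lists were chosen with earlier results of these data known. Genes named beside the members were those with the smallest unadjusted p in each list, up to 4 in the N22 and 2 in the genotype comparison, and up to 5 nearest profiles; a few genes that this rule takes are not reported here. Fits of edgeR and DESeq2 with an N22 term were added after seeing the data.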

Additional observations from a re-analysis of the deposited data

How the results depend on the processing

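The count of genes called by genotype was 0 under all but 2 of the alternatives: 14 with DESeq2 and an N22 term, and 1 without Top2b-low replicate 1 (0 to 1 when single replicates were left out). With the replicate block limma called 0. In the N22 comparison 4864 genes were called, 2181 without limma's trend and 1711 to 4576 with single replicates left out, lowest without Top2b-low replicate 3, while the 1945 without wild-type replicate 3 was next; each leaves 1 N22 library. TMM scaling gave 4820 and shifted the median of all genes by under 0.1 on the log2 scale. Without the trend Tph2 and Slc6a4 kept their log2 fold changes of −2.36 and −3.60 in the N22 libraries and no longer passed (adjusted p = 0.101 and 0.0552); the cause was not tested.

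For the 7 tested members by genotype, 0 of 130 values under the alternatives passed and 19 changed sign, 10 of them with a replicate left out. Among the 4 libraries outside N22 Tph2 was at 0.20, Slc6a4 at 0.018, Htr5b at −0.040 and Slc6a2 at 0.32. Slc6a2 was also at 0.14 with a pseudocount of 5, 0.29 with edgeR and 0.29 with DESeq2, and 0.26 and 0.24 with their N22 terms. Leaving out single replicates gave −1.07 to 0.70 for Tph2, −1.91 to 0.78 for Slc6a4, −0.38 to 0.0031 for Gata2, −0.35 to 0.032 for Gata3, −0.079 to 0.24 for Htr5b, −0.62 to 1.25 for Dbh and −1.86 to 2.13 for Slc6a2. The fits without a replicate 3 keep an N22 library in the other genotype only. By N22, 93 of 102 values kept direction and call. Leaving out single replicates gave −0.22 to 0.11 for Gata2 and −0.13 to 0.17 for Htr5b, both crossing 0, and −0.60 to −0.16 for Gata3. Fev and Phox2a, at 0 to 11 and 0 to 3 reads, were too shallow to order the libraries.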

Other observations

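The Top2b-low N22 library was lower than the wild-type N22 library for several monoamine genes beside Tph2 and Slc6a4. The dopamine transporter gene Slc6a3 had 26.0 normalised counts in the Top2b-low N22 library, against 341 in the wild-type one. Th had 43.8 and 273, Slc18a2 35.5 and 255, En1 2.96 and 19.9, and Lmx1b 5.32 and 20.6. Dbh went the other way, with 10.6 in the Top2b-low and 3.56 in the wild-type N22 library. In the 4 libraries outside N22, Slc6a3 lay between 194 and 265 and Th between 161 and 228 normalised counts. These are values of single libraries, with no test, and these genes were picked with their values known.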
